A study of Mus musculus with 6 samples.

Results

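The IL-4 and IL-13 response genes are 10 genes of the type 2 cytokine response: 2 receptor chains (Il4ra and Il13ra1), 3 secreted or surface proteins of activated macrophages (Retnla, Chil3 and Mgl2), 3 chemokines (Ccl17, Ccl22 and Ccl24), a nuclear receptor (Pparg) and an enzyme (Tgm2). They were taken by symbol from 19938 genes on the array, by a rule that uses no measured value, but the list was written with earlier results of these data known. Each of the 10 had 1 probe set named for it alone. The samples were F4/80+ cells, sorted for a surface protein of mouse macrophages, from tumours implanted in St2-/- mice (3 arrays) and in wild type mice (3 arrays). St2 is the receptor of the cytokine IL-33, and the label St2-/- describes the host mouse, with no genotype given for the implanted tumour cells. The labels give neither the tumour line, the strain, sex or age of the mice, nor whether a sample was 1 animal, a pool or a repeat of another. The p-values therefore reflect variation among these arrays, part or all of which may be technical. The defining macrophage markers were bright in both groups: Adgre1, the gene of F4/80, lay between 11.58 and 11.65 in St2-/- and between 11.28 and 11.36 in wild type, and Csf1r between 12.07 and 12.14 in St2-/- and between 12.05 and 12.08 in wild type. All values are log2 RMA values as deposited, and all differences are St2-/- minus wild type. Precision is limited by the 3 arrays in each group. The gene of St2 itself was not analysed here, so the genotypes were not checked against it.

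IL-4 and IL-13 are cytokines of T helper 2 cells, group 2 innate lymphoid cells, mast cells, basophils and eosinophils. Both bind receptors that hold the chain encoded by Il4ra, and signal through Janus kinases to the transcription factor STAT6. In mouse macrophages STAT6 switches on genes of alternative activation, among them Retnla, Chil3 and Mgl2, and IL-33 is known as one of the signals that makes type 2 lymphoid cells release IL-13.

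STAT factors bind palindromes of TTC and GAA, and STAT6 is known for the form with 4 bases between them. RefSeq promoter windows (assembly GRCm38.p6, from 250 bases before to 50 bases after the annotated start) were matched for 8 of the 10 genes. Ccl24 and Tgm2 were not matched. The motif TTCNNNNGAA, which reads the same on both strands, was found in the windows of 2 of these 8 genes, against 8.01% of 27025 genes with a window, and TTCNNNGAA in 2 of 8, against 9.55%. The 2 forms did not overlap in any window of these 8 genes. Retnla and Ccl17 held the first form, and Chil3 and Ccl17 the second. The windows of 3 genes of macrophage activation and of Ccl17 are printed because 3 of them hold every match found among the members, and because the values of Retnla, Chil3 and Mgl2 on the arrays moved together while those of Ccl17 did not pass the test. Capitals mark the matches, and all 4 windows are written 5′ to 3′ along the gene's own strand. They are Retnla at chr16:48842359-48842658 (plus strand), Chil3 at chr3:106167515-106167814 (minus strand), Mgl2 at chr11:70130107-70130406 (plus strand) and Ccl17 at chr8:94810203-94810502 (plus strand).
Retnla: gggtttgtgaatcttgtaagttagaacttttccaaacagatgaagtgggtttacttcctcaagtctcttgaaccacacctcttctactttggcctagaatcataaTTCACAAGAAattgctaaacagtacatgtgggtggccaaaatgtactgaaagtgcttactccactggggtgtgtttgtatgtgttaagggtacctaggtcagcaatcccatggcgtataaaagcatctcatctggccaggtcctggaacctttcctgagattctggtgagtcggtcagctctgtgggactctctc
Chil3: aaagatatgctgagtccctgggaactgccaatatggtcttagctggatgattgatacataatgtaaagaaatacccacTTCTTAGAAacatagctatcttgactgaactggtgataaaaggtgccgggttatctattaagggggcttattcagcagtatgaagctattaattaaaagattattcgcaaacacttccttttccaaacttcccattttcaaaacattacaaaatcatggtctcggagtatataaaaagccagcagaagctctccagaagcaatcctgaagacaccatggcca
Mgl2: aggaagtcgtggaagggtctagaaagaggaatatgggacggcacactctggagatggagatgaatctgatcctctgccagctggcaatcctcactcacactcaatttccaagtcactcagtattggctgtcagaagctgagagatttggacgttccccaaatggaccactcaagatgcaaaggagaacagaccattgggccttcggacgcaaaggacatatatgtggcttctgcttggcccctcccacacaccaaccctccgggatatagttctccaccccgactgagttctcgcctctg
Ccl17: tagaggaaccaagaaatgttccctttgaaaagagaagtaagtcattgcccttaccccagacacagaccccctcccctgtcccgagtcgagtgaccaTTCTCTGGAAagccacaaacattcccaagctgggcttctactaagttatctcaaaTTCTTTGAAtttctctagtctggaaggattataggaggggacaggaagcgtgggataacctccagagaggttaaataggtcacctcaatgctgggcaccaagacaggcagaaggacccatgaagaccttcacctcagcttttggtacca
The Retnla match, TTCACAAGAA, began 145 bases before the start. The Chil3 match, TTCTTAGAA, began 172 bases before it. The Ccl17 window held TTCTCTGGAA from 154 bases before the start and TTCTTTGAA from 99 bases before it. A match describes letters in the window and does not show that a factor binds there.

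The 10 genes did not move as a block. Chil3, Mgl2, Retnla and Il4ra were lower in St2-/-, Pparg and Tgm2 were higher, and Il13ra1, Ccl17, Ccl22 and Ccl24 did not pass the test. A gene was called at a limma adjusted p under 0.05 over all 19938 genes. The 6 members called of 10 stand beside 20.8% of all genes called, and the 4 called lower and 2 called higher beside 10.0% and 10.7%. After each array was centred on its median, 74% of all calls were higher, against 51.7% of the calls before it, but the members kept 4 lower and 2 higher. Of the 6 members among the brighter 60% of genes 4 were called, where 30.3% of such genes were. Of the 4 members among the dimmest 40% of genes 2 were called, where 6.38% were. The arrays of St2-/- and wild type did not overlap for 7 of the 10 members, against 36.4% of all genes. The median difference was -0.15 over the 10 members and -0.02 over all genes.

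**Figure D1:**
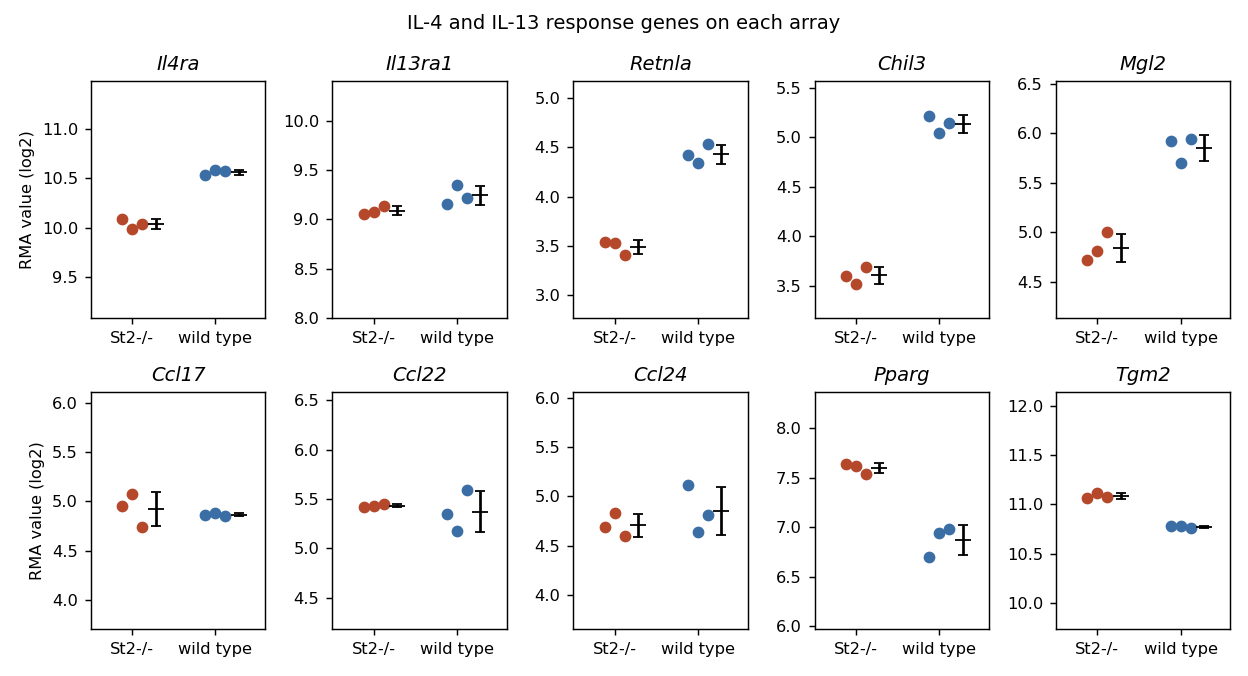
RMA values (log2, vertical axis) of the 10 genes on each of the 3 St2-/- arrays (red, left) and 3 wild type arrays (blue, right), with the mean and SD of each group as a black bar; all panels span the same range of log2 units. The St2-/- points lie below all wild type points for Il4ra, Il13ra1, Retnla, Chil3 and Mgl2, and above them for Pparg and Tgm2. For the 3 chemokines the ranges of the groups overlap.

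The receptor chains come first. Il4ra encodes the alpha chain shared by the IL-4 and IL-13 receptors. Its values were 10.09, 9.99 and 10.04 in St2-/- replicates 1, 2 and 3, against 10.53, 10.58 and 10.57 in wild type. All 3 St2-/- arrays lay below all 3 wild type arrays, and the gap between the groups was wider than the spread within either. Il4ra averaged 10.04 ± 0.05 in St2-/- and 10.56 ± 0.03 in wild type (SD, n = 3 each), a difference of -0.52 ± 0.06 (SE) or a 1.43-fold lower level (limma adjusted p = 0.000266). In bulk samples such as these, fewer cells that express a gene and less RNA of it per cell cannot be told apart.

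Il13ra1 encodes the chain that pairs with the IL-4 receptor alpha chain to form the receptor for IL-13, which IL-4 also uses. It read 9.05, 9.07 and 9.14 in St2-/- and 9.16, 9.35 and 9.22 in wild type. The groups did not overlap, but the highest St2-/- array and the lowest wild type array lay close together. The difference of -0.16 ± 0.07 (SE) did not pass (limma adjusted p = 0.158), with a 95% interval from -0.32 to 0.00. After cyclic loess normalization of the arrays, Il13ra1 was called lower, with a difference of -0.23 (limma adjusted p = 0.0472).

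Whether the chains changed unequally was asked with the log2 ratio of Il4ra to Il13ra1 within each array, a measure chosen after the values were seen. Only its change between groups has a meaning, since 2 probe sets cannot be compared in level. The ratio was 1.04, 0.92 and 0.90 on the St2-/- arrays and 1.37, 1.23 and 1.35 on the wild type arrays. Every St2-/- ratio was the lower one, with a difference of -0.36. The exact two-sided permutation p was 0.10, the smallest that 3 against 3 arrays allow, also after adjustment over 2 such ratios. The second, Chil3 to Retnla, is not given because both probe sets are dim.

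The macrophage products Chil3, Mgl2 and Retnla had the widest differences among the 10 genes. Chil3 encodes Ym1, a secreted chitinase-like protein without enzyme activity that mouse macrophages make under IL-4. Its values were 3.60, 3.52 and 3.69 in St2-/- and 5.22, 5.04 and 5.15 in wild type. Each group held within a narrow band, and the bands lay far apart. Chil3 averaged 3.60 ± 0.09 in St2-/- and 5.14 ± 0.09 in wild type (SD, n = 3 each). The difference was -1.53 ± 0.08 (SE), a 2.90-fold lower level (limma adjusted p = 8.55e-07), which ranked 56 of 19938 genes counted from the lowest difference. On this platform the probes of Chil3 may also bind transcripts of its near-identical relative Chil4, so the value of Chil3 is uncertain in its source. The probe set of Chil4 read from 3.12 to 3.33 in St2-/- and from 3.08 to 3.60 in wild type (difference -0.09, limma adjusted p = 0.675).

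Mgl2 encodes a lectin for galactose and N-acetylgalactosamine on the surface of macrophages and dendritic cells, also called CD301b. It read 4.72, 4.81 and 5.0 in St2-/- against 5.92, 5.70 and 5.94 in wild type. The St2-/- arrays were all below the wild type arrays, with a spread within each group that was wider than that of Il4ra. The difference was -1.01 ± 0.09 (SE), a 2.01-fold lower level (limma adjusted p = 5.45e-05). Chil3 and Mgl2 were the 2 members called with a difference of at least 2-fold, where 1.53% of all genes were. Mgl2 lies at that limit and fell short of it without St2-/- replicate 1 or 2 or wild type replicate 1 or 3 (-0.95, -0.99, -0.98 and -0.97), after median centring or cyclic loess (-0.92 in both) and with array weights (-0.98).

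Retnla encodes RELM-alpha (Fizz1), a small secreted protein of the resistin family and a standard marker of IL-4 activation in mouse macrophages. Its values were 3.54, 3.53 and 3.41 in St2-/- and 4.42, 4.34 and 4.53 in wild type. The groups were again separate on every array. Retnla differed by -0.94 ± 0.07 (SE), a 1.91-fold lower level (limma adjusted p = 1.89e-05). Retnla and Chil3 belong to the dimmest 40% of genes (mean under 5.26), and no detection call was used here. Log2 differences of dim probe sets can understate changes in RNA where part of the signal is background. Whether that holds for these 2 genes was not tested.

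The 95% intervals of Mgl2 (-1.22 to -0.80) and Retnla (-1.10 to -0.77) overlapped, so these 2 neighbours in the order of differences were not told apart. The interval of Chil3 (-1.70 to -1.37) lay below both. Chil3 and Retnla are both dim, so this is an order of values on the array, and the order of their changes in RNA was not tested.

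Chemokines of the type 2 response formed the group in which no member passed. Ccl17 and Ccl22 encode the ligands of CCR4, a receptor of T helper 2 and regulatory T cells, and lie near each other on chromosome 8. Ccl17 read 4.95, 5.08 and 4.74 in St2-/- and 4.86, 4.88 and 4.85 in wild type. The 3 wild type values fell within the range of the St2-/- values. The difference of Ccl17 was 0.06 ± 0.09 (SE; limma adjusted p = 0.686), with a 95% interval from -0.14 to 0.26.

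Ccl22 read 5.42, 5.43 and 5.45 in St2-/- and 5.35, 5.18 and 5.59 in wild type. Here the St2-/- values were nearly equal and lay inside the wider wild type range. The difference was 0.06 ± 0.10 (SE; limma adjusted p = 0.720), with an interval from -0.16 to 0.28. Ccl24 encodes eotaxin-2, a ligand of CCR3 on eosinophils. It read 4.69, 4.83 and 4.60 in St2-/- and 5.12, 4.64 and 4.81 in wild type, so the groups overlapped. Its difference was -0.15 ± 0.12 (SE; limma adjusted p = 0.419), with an interval from -0.41 to 0.11. The 3 intervals leave out changes of the size seen for Retnla, Mgl2 or Chil3 on this scale. Ccl17 and Ccl24 are among the dimmest 40% of genes, and Ccl22 lies just above them.

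The receptor genes of these chemokines did not pass either: Ccr4 differed by 0.02, Ccr3 by -0.19 and the scavenging receptor gene Ackr2 by 0.01 (limma adjusted p = 0.898, 0.167 and 0.932). Of 5 other chemokines known from type 2 inflammation 2 were called lower and 0 higher, where 10.0% of all genes were called lower and 10.7% higher. Ccl8 read 9.33, 9.33 and 9.42 in St2-/- against 10.14, 10.25 and 10.15 in wild type, a difference of -0.82 (limma adjusted p = 2.08e-05). Ccl7, a monocyte attractant, differed by -0.28 (limma adjusted p = 0.0173), a call that was lost without St2-/- replicate 2 or wild type replicate 1 (0.0587 to 0.0667) and after centring the arrays on their median (0.0753). Ccl11, Ccl1 and Ccl26 did not pass (differences -0.29, -0.14 and 0.12). Of these, Ccl11 was called lower in 4 of 15 alternatives (lowest limma adjusted p = 0.0313).

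Pparg and Tgm2 moved the other way. Pparg encodes PPAR-gamma, a nuclear receptor for fatty acids that IL-4 induces in macrophages and that also marks fat cells and alveolar macrophages. Its values were 7.64, 7.62 and 7.54 in St2-/- against 6.70, 6.94 and 6.98 in wild type. All St2-/- arrays lay above all wild type arrays, and the wild type arrays were more widely spread. Pparg averaged 7.60 ± 0.05 in St2-/- and 6.87 ± 0.15 in wild type (SD, n = 3 each), a difference of 0.73 ± 0.08 (SE) or a 1.66-fold higher level (limma adjusted p = 0.000216).

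Tgm2 encodes transglutaminase 2, which cross-links proteins and marks alternative activation in mouse and human macrophages. It read 11.06, 11.12 and 11.07 in St2-/- and 10.78, 10.78 and 10.76 in wild type. Both groups were tight, with every St2-/- array above every wild type array. The difference was 0.31 ± 0.06 (SE), a 1.24-fold higher level (limma adjusted p = 0.00507).

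**Figure D2:**
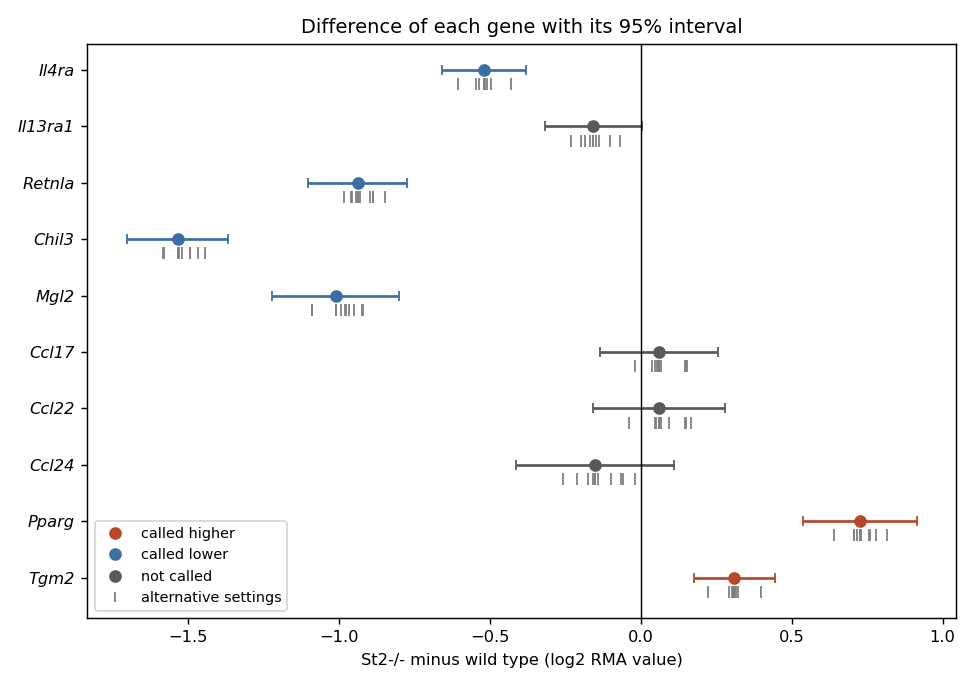
Difference of each of the 10 genes, St2-/- minus wild type (log2 RMA value, horizontal axis), as a point with its 95% interval from limma; grey ticks below each point are the values under the alternative settings. Chil3, Mgl2, Retnla and Il4ra lie below 0, Pparg and Tgm2 above it, and the intervals of Il13ra1, Ccl17, Ccl22 and Ccl24 reach 0.

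The close relatives of the members give context for each, and their counts stand beside 20.8% of all genes called. In the resistin family Retnlg, which mouse neutrophils express, read 4.62, 4.50 and 4.77 in St2-/- against 5.97, 6.10 and 5.67 in wild type (difference -1.28, limma adjusted p = 4e-05). Retnlb and Retn did not pass (0.04 and -0.03). Retnla, Retnlb and Retnlg lie on chromosome 16 and share sequence, so probes may not fully separate them. Of 6 other chitinase-like genes 1 was called lower, Chil1, with a difference of -0.25 (limma adjusted p = 0.0219). That call was lost without St2-/- replicate 2 or 3 or wild type replicate 1 or 2 (0.0602 to 0.0753), and in 3 further settings.

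Clec10a, which encodes the lectin CD301a and is the nearest relative of Mgl2, differed by -0.70 (limma adjusted p = 0.0213). Its call was lost without St2-/- replicate 2 or wild type replicate 3 (0.0542 to 0.0658) and with all rows of the table in the test (0.0823). The hepatic lectin genes Asgr1 and Asgr2, on chromosome 11 like Mgl2 and Clec10a, did not pass (0.02 and -0.15). Among 7 other transglutaminase genes F13a1, the gene of coagulation factor XIII subunit A, read from 8.25 to 8.31 in St2-/- and from 10.92 to 11.04 in wild type. Its difference of -2.73 (limma adjusted p = 9.45e-09) ran against that of Tgm2. Tgm3 was called lower (-0.29, limma adjusted p = 0.0377), but not without St2-/- replicate 1 or 3 or any 1 wild type array (0.0630 to 0.131), and the other 5 did not pass. The related nuclear receptor genes Ppara and Ppard did not pass (0.02 and 0.19).

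The signalling chain of IL-4 and IL-13 had 14 measured genes, of which 3 were called higher and 2 lower, with a median difference of 0.01. Over all genes 20.8% were called, and 30.3% of the brighter 60% of genes, so this count lies near those shares. The cytokine genes themselves did not pass. Il4 read 4.75, 4.64 and 4.74 in St2-/- and 4.83, 4.63 and 4.63 in wild type (difference 0.01, limma adjusted p = 0.927). Il13 read 5.68, 5.85 and 5.67 in St2-/- and 5.98, 5.74 and 6.11 in wild type (difference -0.21, limma adjusted p = 0.175). For both cytokine genes the groups overlapped.

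Il13ra2 encodes a receptor that binds IL-13 and is known as a decoy. It read 3.40, 3.47 and 3.48 in St2-/- and 4.63, 4.36 and 4.81 in wild type, a difference of -1.15 ± 0.10 (SE; limma adjusted p = 4.81e-05). It too is among the dimmest 40% of genes. Irs1, an adaptor that couples insulin receptors and the IL-4 receptor to PI3 kinase, read 6.96, 6.98 and 7.04 in St2-/- against 8.02, 8.26 and 8.04 in wild type, a difference of -1.11 (limma adjusted p = 9.49e-06). A second, dimmer probe set of Irs1 differed by -0.39 and did not pass with all rows tested (limma adjusted p = 0.0521). Irs2, a relative of Irs1 that carries the IL-4 signal in macrophages, differed by 0.01 (limma adjusted p = 0.916).

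The 3 genes of this list called higher were Ptpn6, Socs1 and Socs3. Ptpn6, the gene of the phosphatase SHP-1, differed by 0.29 (limma adjusted p = 0.00811). Socs1 and Socs3, whose products damp cytokine receptor signalling, differed by 0.29 and 0.26 (limma adjusted p = 0.0340 and 0.0241). Other genes of inhibitors did not share that direction: Cish differed by -0.24 (limma adjusted p = 0.0834), and Socs2, from the list of other IL-4 targets, was lower (-0.51, limma adjusted p = 0.0117; 0.0504 with all rows tested). Socs1 was not called without St2-/- replicate 2 or 3 or wild type replicate 2 or 3 (0.0904 to 0.115), and Socs3 not without St2-/- replicate 1 or 3 or wild type replicate 1 (0.0728 to 0.0903). Stat6, Jak1, Jak2 and Tyk2 differed by 0.11, 0.05, -0.05 and 0.25, and none of the 4 passed.

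Other known targets of IL-4 in macrophages were mostly lower where they were called. Of 24 measured genes 13 were called lower, 2 higher and 9 not, with a median difference of -0.27. Over all genes 10.0% were called lower and 10.7% higher, and 30.3% of the brighter 60% of genes were called. Next to F13a1, Arg1 read 8.48, 8.51 and 8.46 in St2-/- and 11.70, 11.62 and 11.65 in wild type. Mrc1, the mannose receptor gene, read from 9.62 to 9.66 in St2-/- and from 11.28 to 11.29 in wild type. Arg1 had a difference of -3.17, beyond that of any of the 10 members, and Mrc1 one of -1.64, with a 95% interval (-1.77 to -1.50) that overlapped that of Chil3. The arginine transporter gene Slc7a2 differed by -2.98. The 2 genes called higher were Mmp12 (0.37, limma adjusted p = 0.00596) and Il1r2 (0.53, limma adjusted p = 0.00617). The 9 genes that were not called included Ch25h, Il1rn, Alox15, Fcer2a and Ppargc1b, with differences from -0.03 to 0.03.

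**Figure D3:**
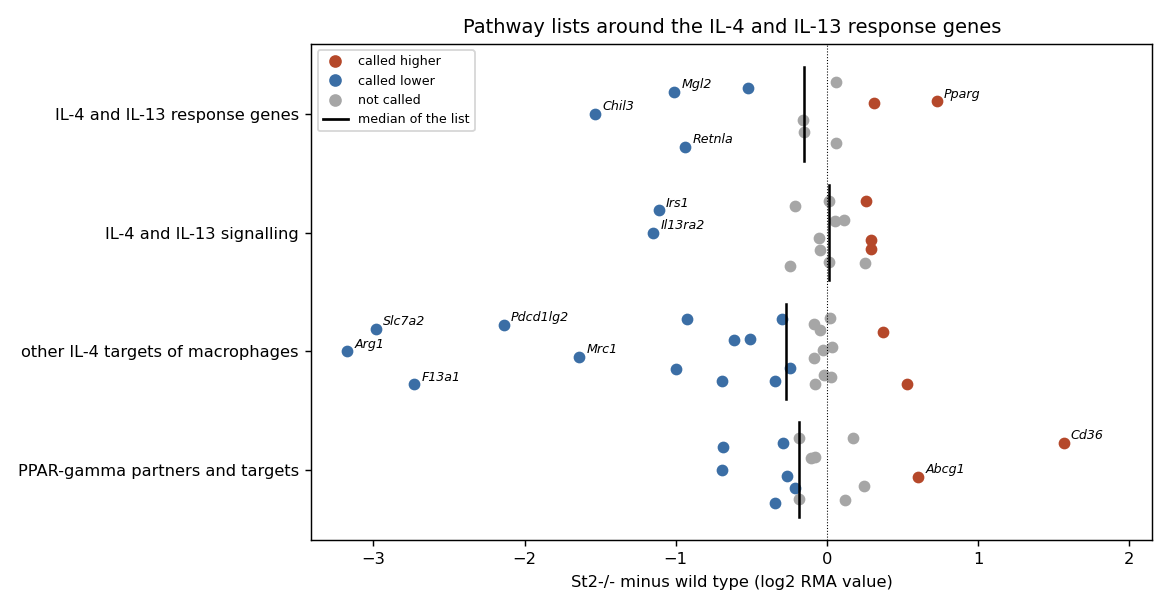
Differences, St2-/- minus wild type (log2 RMA value, horizontal axis), of the 10 members and of 3 lists of the pathway; each point is a gene, coloured by whether it was called higher, called lower or not called, and the black bar is the median of the list (vertical scatter within a list has no meaning). The list medians are -0.15 for the members, 0.01 for signalling, -0.27 for other IL-4 targets and -0.18 for PPAR-gamma partners and targets.

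Genes that PPAR-gamma is known to regulate, with its partners, did not follow Pparg as a list. Of 15 measured genes 2 were called higher, 6 lower and 7 not, with a median difference of -0.18, where 10.7% of all genes were called higher and 10.0% lower. After centring the arrays on their median 5 were called higher. The scavenger receptor gene Cd36 read 8.27, 8.34 and 8.36 in St2-/- against 6.71, 6.85 and 6.71 in wild type, a difference of 1.57 (limma adjusted p = 4.07e-07). Abcg1, a cholesterol exporter gene, differed by 0.60 (limma adjusted p = 9.72e-05). Angptl4, which encodes an inhibitor of lipoprotein lipase, and Olr1, a receptor gene for oxidised lipoprotein, differed by -0.70 and -0.69 (limma adjusted p = 0.000116 and 0.000157). Fabp4, a fatty acid carrier of fat cells and macrophages, differed by -0.34 (limma adjusted p = 0.00328). The partner genes Rxra and Rxrb did not pass (-0.19 and 0.17). Over all distinct genes of the pathway and family lists, 26 of 79 were lower and 7 higher, and 33 were called in all, with a median difference of -0.12. That stands beside 20.8% of all genes called.

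Several of the 10 genes are also known from other cells, so markers of those cells are given beside them, as the number called and as the sum of unlogged signals. Over all genes 20.8% were called, with 30.3% of the brighter 60% and 6.38% of the dimmest 40%. Where 1 marker carries much of a sum, the sum without it is given too, a choice made after the values were seen. Neutrophils and monocytes express Chil3 in mice. Of 13 neutrophil markers 5 were lower and 1 higher (Csf3r, 0.50). Their summed signal ran from 673 to 689 in St2-/- and from 838 to 894 in wild type. Without Csf3r the sums ran from 323 to 339 in St2-/- and from 579 to 643 in wild type. Leaving out Csf3r widened the gap, since it was the marker called higher. In wild type S100a8, S100a9, Mmp9 and Retnlg were the brightest markers left, and a sum without them was not taken. S100a8 (-1.77), Mmp9 (-0.92) and S100a9 (-1.69) were lower, while the defining markers Ly6g, Camp, Ltf and Ngp were among the dimmest 40% of genes and did not pass (differences from -0.12 to 0.03). Of 5 measured monocyte markers 3 were lower and 1 higher, with summed signals from 3847 to 4015 in St2-/- and from 11857 to 12673 in wild type. F13a1 and Fn1 (-1.72) were lower and Plac8 (3.18) higher. Fn1, which fibroblasts also express, gave most of that signal. The sums without Fn1 ran from 930 to 935 in St2-/- and from 2381 to 2535 in wild type. F13a1 was the brightest marker left in wild type, at 10.92 to 11.04, against 8.25 to 8.31 in St2-/-. It is also on the lists of other IL-4 targets and transglutaminases. A sum that leaves out F13a1 as well was not taken. Of the markers then left, Plac8 averaged 8.27 in St2-/- and 5.09 in wild type. Ccr2 averaged 8.19 in St2-/- and 8.52 in wild type, and Vcan 4.51 and 4.75. The lower sums in St2-/- therefore rest on Fn1 and F13a1, and a fall beyond these genes is not shown. The list's Ly6c1 and Ly6c2 share 2 probe sets, which were outside the test of single genes. Both were higher in St2-/- when all rows of the table were tested (0.98 and 0.76, limma adjusted p = 0.000471 and 0.00189), against the direction of the sum. The part of these cells in the difference of Chil3 was not tested.

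Dendritic cells express Mgl2, Ccl17 and Ccl22. Of 14 dendritic cell markers 4 were higher and 3 lower, with summed signals from 2179 to 2287 in St2-/- and from 1299 to 1381 in wild type. Xcr1 (3.37), Clec9a (1.88), Irf8 (0.72) and Dpp4 (0.32) were higher, and Fscn1 (-0.58), Ccr7 (-0.26) and Cd209a (-0.27) were lower. Without Xcr1 the sums ran from 1499 to 1583 in St2-/- and from 1240 to 1309 in wild type. Irf8 was the brightest marker left, with a mean of 9.81 in St2-/- and 9.09 in wild type. The sum without both Xcr1 and Irf8 was not taken. The brightest marker then left was Fscn1, with a mean of 8.02 in St2-/- and 8.60 in wild type, against the direction of the sums. Clec9a, with means of 6.25 and 4.37, ran with the sums but was dimmer. The higher sums in St2-/- therefore rest on Xcr1 and Irf8, and a rise beyond these genes is not shown. Ccr7 kept its call in 10 of 15 alternatives and Cd209a in 3 of 14. Ccr7 lost its call without St2-/- replicate 2 or 3 or wild type replicate 3, and Cd209a without any 1 array except wild type replicate 2 (0.0514 to 0.137 over both genes). Flt3 and Zbtb46, which mark the lineage, did not pass (-0.01 and -0.24). Of 6 eosinophil markers 0 passed in limma at the adjusted threshold, and their summed signal ran from 123 to 136 in St2-/- and from 141 to 148 in wild type. The granule genes Prg2 and Epx were dim and differed by -0.22 and -0.27. Whether these cells bear on Mgl2 or the chemokines was not tested.

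Fat cells express Pparg. Of 6 measured adipocyte markers 1 was lower, Fabp4, and 0 were higher, with summed signals from 143 to 149 in St2-/- and from 154 to 162 in wild type. Without Plin1 the sums overlapped, from 112 to 116 in St2-/- and from 111 to 128 in wild type. The defining markers Adipoq and Plin1 were among the dimmest 40% of genes and were not called (-0.12 and -0.21). Of 12 macrophage markers 2 were higher and 4 lower, with summed signals from 47794 to 49829 in St2-/- and from 51448 to 52948 in wild type. Without Lyz2 the sums overlapped, from 42426 to 44076 in St2-/- and from 42296 to 43138 in wild type. Msr1 (-0.76), Mertk (-0.72) and Lyz2 (-0.71) were lower, and Adgre1 and Fcgr1 higher (0.31 and 0.36).

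Cells that make IL-4 and IL-13 were covered by 2 lists. Of 10 mast cell and basophil markers 2 were lower, Hdc (-1.02) and Kit (-0.38), with summed signals from 158 to 177 in St2-/- and from 196 to 216 in wild type. Kit lost its call without St2-/- replicate 2 (0.0592). All 10 of these markers were among the dimmest 40% of genes. Of 11 markers of group 2 innate lymphoid and T helper 2 cells Il7r was higher (1.50) and Gata3 lower (-0.27, limma adjusted p = 0.0308). Gata3 kept its call in 5 of 14 alternatives and lost it without St2-/- replicate 1 or 3 or any 1 wild type array (0.0510 to 0.107). The list's summed signal ran from 1020 to 1062 in St2-/- and from 574 to 610 in wild type, a gap carried by Il7r, which other lymphoid cells also express. Without Il7r the sums of the other 10 markers overlapped, from 317 to 334 in St2-/- and from 319 to 354 in wild type. Il5 and Il17rb did not pass (0.00 and 0.01).

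Fibroblast and endothelial markers were mostly lower where they were called, and T cell markers mostly higher. Of 10 fibroblast markers 6 were lower, 1 higher and 3 not called, and fibroblasts express Il4ra, Il13ra1 and Il13ra2. Dcn (-3.33), Lum (-3.56) and Pdgfra (-1.74) were lower and Col1a2 (0.35) higher. The summed signal ran from 1253 to 1355 in St2-/- and from 4142 to 4301 in wild type. Without Dcn the sums ran from 1019 to 1075 in St2-/- and from 1603 to 1617 in wild type. Endothelial markers had 6 lower (among them Flt1 -2.02, Vwf -1.13 and Cdh5 -1.46), 2 higher (Kdr 1.52 and Pecam1 0.89) and 1 not called of 9. Their summed signal ran from 769 to 793 in St2-/- and from 936 to 1045 in wild type. Without Flt1 the sums overlapped, from 694 to 702 in St2-/- and from 609 to 716 in wild type. Endothelial cells express Tgm2. T cell markers had 5 higher (among them Cd4 2.19, Cd3g 0.94 and Cd3e 0.72), 1 lower (Cd28, -0.71) and 4 not called of 10. Their summed signal ran from 680 to 719 in St2-/- and from 404 to 436 in wild type. Without Cd4 the sums ran from 423 to 427 in St2-/- and from 349 to 373 in wild type. Epithelial and tumour cell markers had 1 lower and 0 higher of 10 (from 816 to 849 in St2-/- and from 874 to 961 in wild type). Without Krt8 the sums overlapped, from 612 to 647 in St2-/- and from 620 to 675 in wild type. The part of these cells in the differences of the receptor genes and of Tgm2 was not tested.

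**Figure D4:**
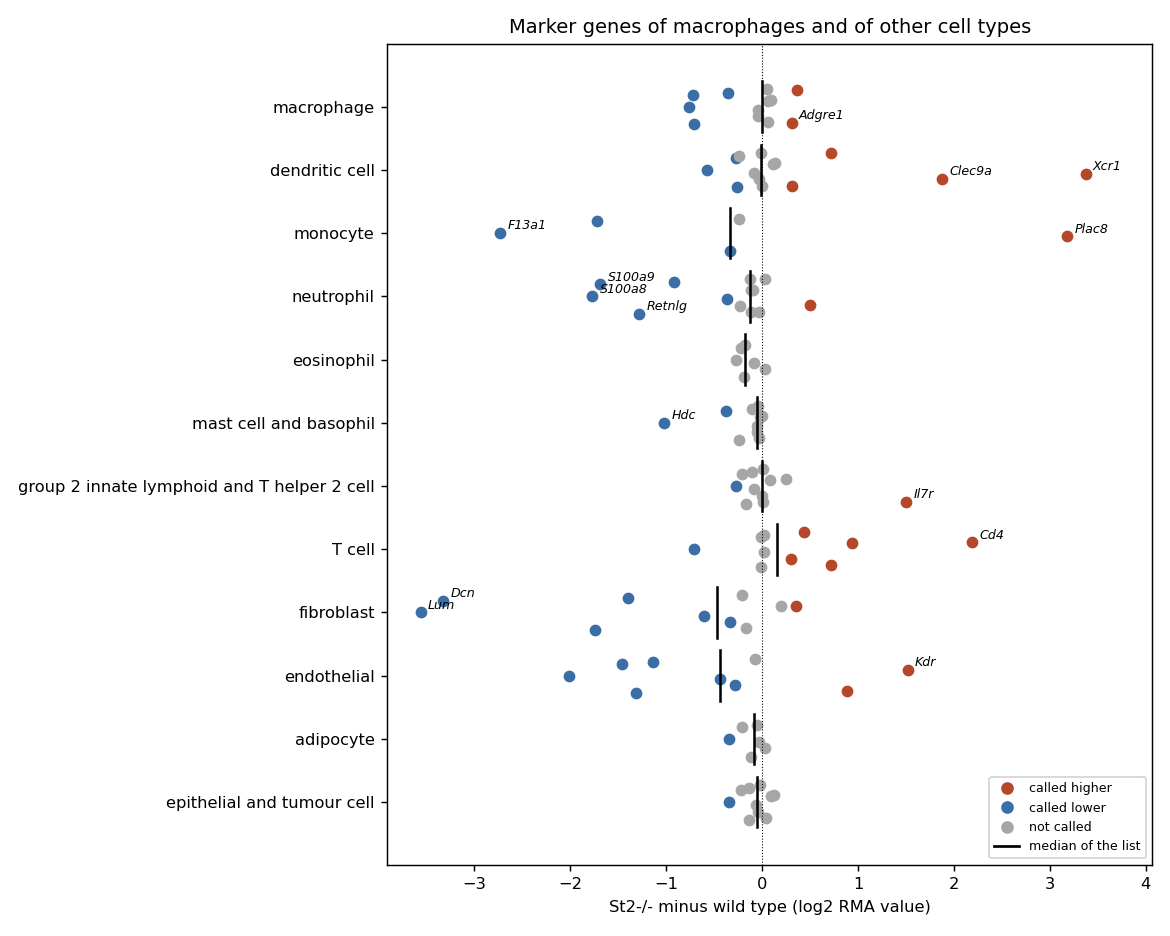
Differences, St2-/- minus wild type (log2 RMA value, horizontal axis), of marker genes of 12 cell types; each point is a gene, coloured by its call, and the black bar is the median of the list (vertical scatter has no meaning). The medians lie at or near 0 for macrophages and dendritic cells, and Xcr1 (3.37), Plac8 (3.18), Dcn (-3.33) and Lum (-3.56) lie farthest out.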

How the data were processed

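RNA of 6 samples was hybridised to Affymetrix 1.0 ST gene arrays, per the labels' protocols, 1 array per sample. The authors deposited RMA values on a log2 scale, with RMA named in the submitters' processing notes. The log base was inferred from that method and from the range of values (2.02 to 14.15). RMA equalises array distributions and so hides any change common to most genes. Its version and annotation and the genome build were not given in the sources used here.

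Of 35556 probe sets, 21789 are paired with 1 symbol in the platform annotation, 1621 with several and 12146 with none. A gene was represented by its probe set with the highest mean, giving 19938 genes, and 0 symbols changed through the reference gene table (GRCm38.p6). The genotypes were compared with limma 3.58.1 under R 4.3.3 (lmFit and eBayes, two-sided, with Benjamini-Hochberg adjustment over all genes). The test was tested on simulated arrays with changes put into 200 genes. It called 5.33% of changes of 0.25 log2 units, 58.3% of changes of 0.5 and 95.5% of changes of 1. Small differences that did not pass may therefore have been missed. Promoter motifs were searched with Python 3.11.15.

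The members, lists and rule for named genes were chosen with earlier results of these data known. The rule took all members, Arg1 and Mrc1, up to 6 called genes of the signalling chain, up to 4 of each other list, up to 3 markers per cell type and the defining markers, and other genes were named after their values were seen. Same-numbered arrays of the groups had deviations that correlated at 0.01, -0.01 and -0.05, so they were not taken as pairs. Alternatives were median centring, cyclic loess, an intensity trend, a robust prior, array weights, all rows, the mean of probe sets, no dim genes, a replicate block, leaving out each array and, for promoters, only bases before the start.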

Additional observations from a re-analysis of the deposited data

How the results depend on the processing

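The calls of Il4ra, Mgl2, Pparg and Tgm2 held in each of 15 alternatives, and those of Retnla and Chil3 in each of the 14 that tested them. Differences ranged from -0.60 to -0.43 for Il4ra, -0.98 to -0.85 for Retnla, -1.58 to -1.44 for Chil3, -1.09 to -0.92 for Mgl2, 0.64 to 0.82 for Pparg and 0.22 to 0.40 for Tgm2. The highest adjusted p of these 6 genes was 0.0276, for Tgm2. Ccl17, Ccl22 and Ccl24 were not called in any alternative that tested them, and Ccl17 and Ccl22 changed sign in some. Il13ra1 was called in 1 of 15 alternatives, cyclic loess (-0.23). Without the dimmest 40% of genes 2 members were called lower, since Retnla and Chil3 were no longer tested. Centring on the median gave 3686 genes higher and 1294 lower over all genes, and 12 higher on the pathway and family lists. With the replicate block, all genes called numbered 3571 and members called 6, and the numbers were not shown to pair the samples. Leaving out 1 array gave 2887 to 3852 genes called, 6 members called each time, and 26 to 30 genes of the pathway and family lists. Both promoter motif counts stayed at 2 of 8 with only the bases before the start. No detection call was used, so whether dim probe sets exceed background is unknown.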
